A study of Mus musculus with 7 samples.

Results

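The expression of 50 cell cycle and mitosis genes was examined in mouse myocardial tissue after myocardial infarction (MI). The genes were chosen by name, as the cyclins with their kinases, S phase genes, G2/M genes, mitosis genes and cell cycle inhibitors, and members with low values were kept. All 50 were found among the 56980 genes of the table. They were 8 G1 cyclins and kinases, 12 S phase genes, 10 G2/M kinases, cyclins and regulators, 13 genes of the spindle, kinetochore and cytokinesis, 2 transcription factors and 5 inhibitors. The tissue came from 7 male mice of the inbred C57BL/6J strain, wild-type in genotype, obtained at 8 weeks of age and kept for 1 week before surgery. The left coronary artery was ligated in 3 mice (MI mice), and 4 mice underwent sham surgery (sham group). The tissue was taken 4 days after surgery, and total RNA was sequenced as 1 library per mouse.

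A dividing cell passes through G1, S phase, G2 and mitosis. D-type cyclins with Cdk4 or Cdk6, and then E-type cyclins with Cdk2, release E2F transcription factors from the retinoblastoma protein, and E2F factors switch on the genes of DNA replication. Later, cyclin A and cyclin B with Cdk1 drive entry into mitosis, when Foxm1 and the MuvB complexes switch on the G2/M genes. Inhibitors of the Cip/Kip and Ink4 families hold the kinases back. In the adult heart most cardiomyocytes no longer divide, whereas fibroblasts, endothelial cells and immune cells can. Bulk tissue therefore normally holds little RNA of most genes of replication and mitosis.

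Values are FPKM, the fragments counted on a gene relative to its length and to the depth of the library. Depths ran from 19977713 to 23610870 fragments per mouse, and the ranges of both groups overlapped. The number of mice per group limits the precision. In one of the MI mice the transcriptome lay close to the sham group. Over the genes tested, MI replicate 2 correlated with the sham mice on the log2 scale at a Pearson's r of 0.984 to 0.987. The range was 0.878 to 0.881 in MI replicate 1, and in MI replicate 3 it was 0.903 to 0.906. Genes are not independent replicates in these correlations. Mitochondrial genes held 26.5% to 27.4% of the fragments in the sham mice and 28.2% in MI replicate 2, but 13.6% and 14.9% in MI replicates 1 and 3. The counts below are therefore given with all mice and without MI replicate 2, and the values of members by mouse. The labels do not say how far the injury reached in this mouse or which part of the heart was taken. The sham mice correlated with each other at 0.989 to 0.992, so that no sham mouse stood near MI replicates 1 and 3, and MI replicate 2 lay below the sham pairs. For 7 of 8 fibroblast markers MI replicate 2 stood above all sham mice, as the other MI mice did, with Postn, periostin of the injured matrix, at 10.8 FPKM against 3.12 to 4.06. The part of the injury's size or of the piece taken was not tested, so what the values of all 3 MI mice stand for as a group is uncertain. That mouse was singled out after its values were seen, so the values without it describe 2 MI mice and not the group as labelled. In bulk tissue, more cells of a type and more RNA per cell cannot be told apart.

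Of the 50 members, 46 stood above every sham mouse in both MI replicates 1 and 3, beside 44% of all genes with no filter. MI replicate 2 stood within the sham range for 29 members, below it for 16 and above it for 5. Over all 30504 genes above 0 in any mouse, it stood within the sham range for 63.3%, below it for 17.4% and above it for 19.3%. The median member was 3.69 times the sham mean in MI replicate 1, 0.922 times in MI replicate 2 and 3.2 times in MI replicate 3. MI replicate 2 held the lowest of the 3 MI values for 47 members. On the log2(FPKM + 1) scale the median SD of a member was 0.0817 over the sham mice and 0.471 over the MI mice. The 4 members that did not stand above the sham mice in MI replicates 1 and 3 were Ccnd1, Ccnd3, Cenpf and Cdkn1c.

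**Figure D1:**
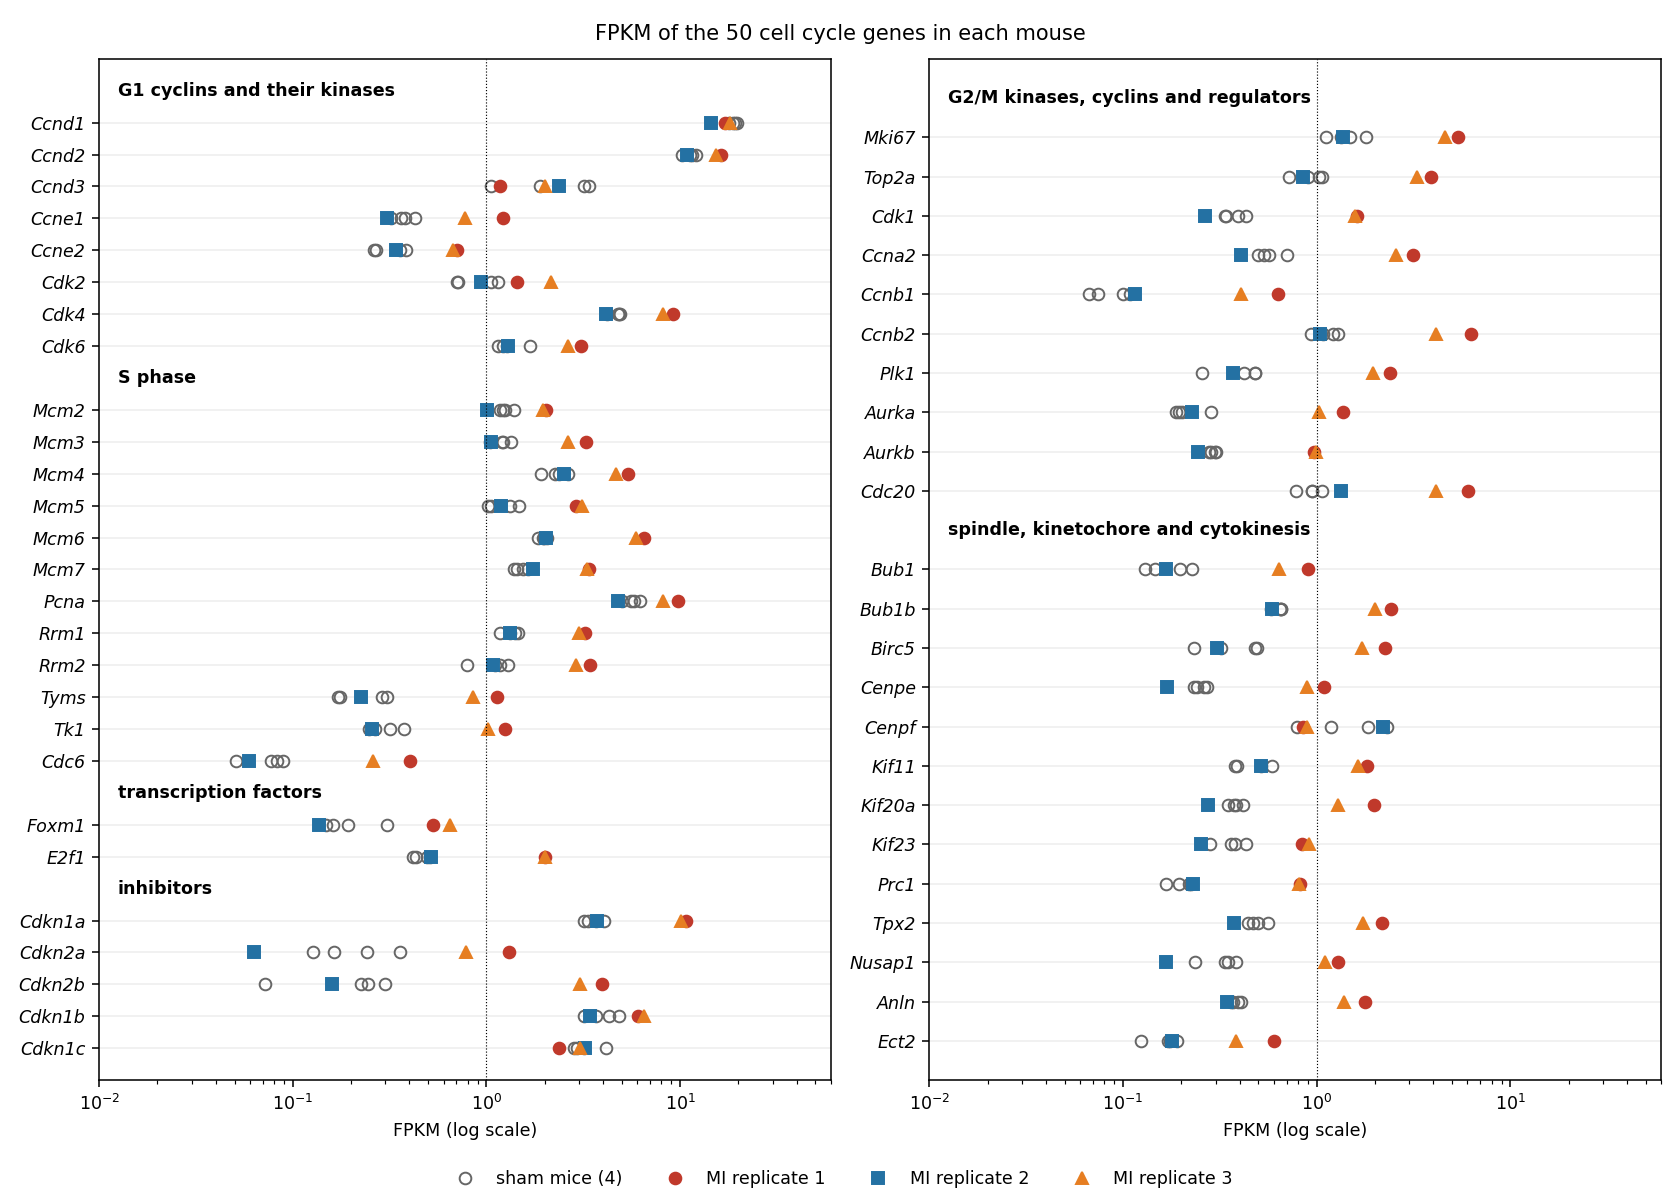
FPKM of the 50 members in each mouse on a log axis, ordered by role, with open circles for the 4 sham mice, red circles for MI replicate 1, blue squares for MI replicate 2 and orange triangles for MI replicate 3. The dotted line marks 1 FPKM. For 46 members the red and orange marks lie to the right of all open circles, and for 29 members the blue mark lies among them.

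Most members were scarce. The sham mean was under 1 FPKM for 30 of 50, and 23 members reached at least 1 FPKM in at least 3 mice, the condition for the main test. Of these 23, 20 reached 1 FPKM in at least 3 sham mice, while 3 (Cdk2, Top2a and Cdc20) reached it in fewer sham mice and passed with the help of the MI mice. Of the 27 that did not pass, 14 reached 1 FPKM in 2 mice, 4 in 1 mouse and 9 in none. No member was at 0 in any mouse, and the fragments behind a value ran from 2 to 4475.

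Each group was compared with limma's moderated test on log2(FPKM + 1), a scale that understates the change of scarce genes. With all 7 mice, 0 of the 23 members tested passed a Benjamini-Hochberg adjusted p of 0.05 in either direction. Among the 11431 genes tested the test called 0.0175% higher and 0.00875% lower. Limma with voom weights on recovered fragments also called 0 members. At an unadjusted p under 0.05, 12 of the 23 members were higher by the main test, beside 29.5% of all genes, and 0 lower, beside 9.85%. By the lines of an unadjusted p of 0.05 and a log2 fold change of 0.5, 11 of the 23 members (47.8%) were higher in the MI mice, beside 17.8% of all genes tested, and 0 were lower, beside 4.8%. These 11 were Ccnb2, Mki67, Top2a, Rrm2, Cdkn1a, Mcm4, Mcm5, Rrm1, Mcm6, Cdc20 and Mcm7. Top2a and Cdc20 passed the filter with the help of the MI mice, in which they were high. The counts of 12 and 11 are therefore descriptions only. The median log2 fold change was 0.53 over the 23 members and 0.21 over all genes tested. After scaling by the median log-ratio, which brought the median of all genes to 0.02, the members' median was 0.35 and 6 of the 23 members were past the lines as higher, beside 9.75% of all genes. That scaling turned the calls over all genes from 78.8% higher to 50% higher.

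All MI mice stood above all sham mice for 2 of the 23 members, Cdc20 and Mcm7, beside 16.1% of all genes tested, so this count does not exceed the background. All MI mice stood below all sham mice for 0 members, beside 9% of all genes. With no filter, the 50 members gave 0 calls at an adjusted p of 0.05 (0.0656% of 30504 genes were called higher), 24 higher at an unadjusted p under 0.05, where the share over the whole table was 20.6%, 18 members past the lines (9.33% of all genes) and 5 above every sham mouse (12% of all genes). The 5 were Cdc20, Mcm7, E2f1, Ccnb1 and Prc1. For each of them the exact two-sided permutation test over the 35 splits of the 7 mice gave p = 0.0571. This is the smallest p the test can give here, since it doubles the p of 1 side. For the other members the exact permutation p lay between 0.114 and 0.743.

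Without MI replicate 2, limma called 19 of the 23 members higher at an adjusted p under 0.05, beside 56.8% of 11264 genes, and 0 lower, beside 14.9%. Both MI mice then stood above all sham mice for the same count of 19 members, beside 61.8% of all genes. They stood below all sham mice for 0 members, beside 17.1% of all genes. With no filter, 46 of the 50 members were called higher in this comparison of 2 MI mice with 4 sham mice, beside 36.2% of 30076 genes, and 0 were called lower, beside 5.97%. All 46 also had both MI mice above all sham mice, a pattern found in 44% of all genes. Leaving out MI replicate 1 or MI replicate 3 instead, with no filter, gave 0 members at an adjusted p under 0.05 by limma and 1 of the 50 past the lines in each case, beside 2.27% and 2.28% of all genes, so that count did not exceed the background.

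**Figure D2:**
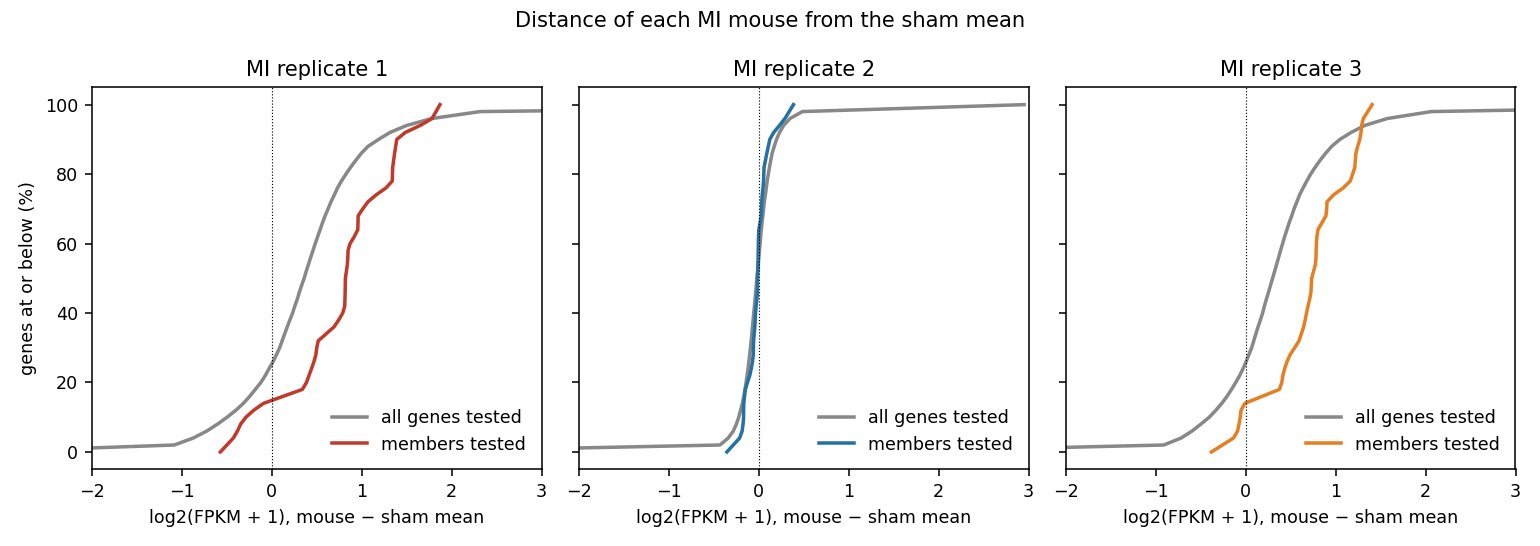
Cumulative share of genes (%) against the difference between 1 MI mouse and the sham mean in log2(FPKM + 1), with grey lines for the 11431 genes tested and coloured lines for the 23 members among them. The median member lay 0.82 above the sham mean in MI replicate 1 and 0.73 in MI replicate 3, where the median of all genes lay at 0.36 and 0.30, and at -0.01 in MI replicate 2, where all genes lay at -0.02.

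The G1 cyclins and kinases included the members with the highest levels. Ccnd1, cyclin D1, which starts passage through G1, was the most abundant member in the sham mice at 19.2, 17.8, 18.8 and 19.7 FPKM. It was at 17.1, 14.5 and 18.2 FPKM in the MI mice, so 2 MI mice lay below the sham range and 1 within it. Its log2 fold change was -0.18 ± 0.10 (SE, limma, adjusted p = 0.215). It was -0.42 after scaling by the median log-ratio, -0.32 with mitochondrial genes left out and 0.01 after rescaling to TPM. Its size depended on the scaling, and its direction did so with TPM. Ccnd2, cyclin D2, was at 11.5, 11.3, 12.1 and 10.2 FPKM in the sham mice and at 16.2, 10.9 and 15.3 FPKM in the MI mice. MI replicates 1 and 3 were high and MI replicate 2 lay within the sham range, with a log2 fold change of 0.29 ± 0.14 (limma, adjusted p = 0.167). The fold change of Ccnd2 was 0.05 after scaling by the median log-ratio, 0.15 with mitochondrial genes left out and 0.49 as TPM. Ccnd3, cyclin D3, spread from 1.06 to 3.38 FPKM among the sham mice themselves, at 1.89, 1.06, 3.38 and 3.19. The MI values of 1.17, 2.36 and 2.01 FPKM all lay inside that range, and the log2 fold change of -0.21 ± 0.29 was smaller than its error. In FPKM, the 3 D-type cyclins thus differed in level and in pattern, with only Ccnd2 higher in MI replicates 1 and 3 than in every sham mouse.

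The E-type cyclins, which activate Cdk2 before DNA replication, were below the filter. Ccne1 was at 0.32, 0.38, 0.363 and 0.426 FPKM in the sham mice and at 1.22, 0.306 and 0.778 FPKM in the MI mice. Ccne2 was at 0.269, 0.261, 0.356 and 0.386 FPKM in the sham mice and at 0.708, 0.34 and 0.669 FPKM in the MI mice. Both were high in MI replicates 1 and 3, at 3.28 and 2.09 times the sham mean for Ccne1 and at 2.23 and 2.11 times for Ccne2. Their partner kinase Cdk2 was at 1.15, 0.715, 0.707 and 1.06 FPKM in the sham mice and at 1.43, 0.933 and 2.15 FPKM in the MI mice. It was one of the members that were higher in MI replicate 3 than in MI replicate 1.

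The kinases of the D-type cyclins were also high in MI replicates 1 and 3. Cdk4 was at 4.18, 4.79, 4.89 and 4.86 FPKM in the sham mice and at 9.18, 4.12 and 8.11 FPKM in the MI mice. Cdk6 was at 1.27, 1.15, 1.21 and 1.68 FPKM in the sham mice and at 3.06, 1.29 and 2.63 FPKM in the MI mice. The log2 fold change was largest among the G1 genes for Cdk6, 0.48 ± 0.20 (limma, adjusted p = 0.123). Of the 8 G1 genes, 6 passed the filter, 0 were past the lines, and 6 stood above all sham mice in MI replicates 1 and 3, a pattern of 44% of all genes with no filter. Without MI replicate 2, limma called 4 of the 6 tested at an adjusted p under 0.05, a share near the 56.8% of all genes, with log2 fold changes of 0.45 for Ccnd2, 0.55 for Cdk2, 0.76 for Cdk4 and 0.73 for Cdk6.

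The S phase genes stood higher in MI replicates 1 and 3 than in every sham mouse in 12 of 12 cases, beside 44% of all genes with no filter. Their median ratio to the sham mean was 2.56 in MI replicate 1, 0.962 in MI replicate 2 and 2.4 in MI replicate 3. The Mcm2 to Mcm7 proteins form the ring-shaped helicase that opens DNA at replication origins. Among the S phase genes, Mcm6 differed most on the log2(FPKM + 1) scale, with a log2 fold change of 0.87 ± 0.30 (limma, adjusted p = 0.108). It was at 1.97, 2.06, 1.84 and 1.95 FPKM in the sham mice and at 6.47, 2.02 and 5.91 FPKM in the MI mice. MI replicate 2 fell between sham values, and without it the log2 fold change was 1.28 ± 0.06 (limma, adjusted p = 9.14e-06). Mcm7 was the S phase gene whose groups did not overlap, at 1.39, 1.43, 1.64 and 1.54 FPKM in the sham mice and at 3.39, 1.73 and 3.3 FPKM in the MI mice. In MI replicate 2 it exceeded the highest sham mouse by little.

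The other helicase subunits were high in the same 2 mice. Mcm5 was at 1.02, 1.06, 1.33 and 1.48 FPKM in the sham mice and at 2.9, 1.19 and 3.12 FPKM in the MI mice, with a log2 fold change of 0.57 ± 0.23. Mcm2 differed least of the 6, at 1.22, 1.17, 1.25 and 1.39 FPKM in the sham mice and 2.03, 1.01 and 1.96 FPKM in the MI mice, and MI replicate 2 lay below all sham mice. Mcm3 and Mcm4 had log2 fold changes of 0.53 and 0.61. Without MI replicate 2, limma called all 6 subunits at an adjusted p under 0.05, beside 56.8% of all genes, with log2 fold changes from 0.41 for Mcm2 to 1.28 for Mcm6.

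Pcna, the sliding clamp of the replicating polymerases, was at 5.03, 6.17, 5.77 and 5.55 FPKM in the sham mice and at 9.8, 4.78 and 8.19 FPKM in the MI mice. It was the most abundant S phase member, and MI replicate 2 was its lowest value. Its processed copy Pcna-ps2 was listed at 11.9 to 22.2 FPKM, more than Pcna in every mouse, so the division of fragments between the gene and its copy is uncertain. Rrm2, the regulated subunit of ribonucleotide reductase, which makes deoxyribonucleotides, was at 0.791, 1.18, 1.11 and 1.29 FPKM in the sham mice and at 3.43, 1.08 and 2.9 FPKM in the MI mice. Its log2 fold change was 0.66 ± 0.26 (limma, adjusted p = 0.114), and that of the large subunit Rrm1 was 0.54 ± 0.21. MI replicate 2 lay within the sham range for both subunits.

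The other S phase members were under the filter. Tyms, thymidylate synthase, was at 0.175, 0.172, 0.29 and 0.307 FPKM in the sham mice and at 1.14, 0.224 and 0.856 FPKM in the MI mice, which made 4.81 and 3.63 times the sham mean in MI replicates 1 and 3. Tk1, the thymidine kinase of dividing cells, reached 4.1 and 3.37 times the sham mean in those mice. Cdc6, which loads the helicase onto origins, had the lowest sham level of the 50 members and the smallest log2 fold change among the S phase genes, 0.20. It was at 0.051, 0.0767, 0.0886 and 0.0832 FPKM in the sham mice, from 11 to 20 fragments, and at 0.401, 0.0597 and 0.26 FPKM in the MI mice. As a ratio, MI replicate 1 was at 5.35 and MI replicate 3 at 3.47 times the sham mean. The low log2 fold change and the high ratio of Cdc6 describe the same values on both scales.

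The G2/M genes stood above every sham mouse in MI replicates 1 and 3 in 10 of 10 cases, beside 44% of all genes with no filter, at a median of 5.49 and 4.3 times the sham mean, against 0.914 times in MI replicate 2. Mki67, the gene of the proliferation marker Ki-67 (ENSMUSG00000031004, chromosome 7, 135689784 to 135716361 on GRCm38), was at 1.12, 1.34, 1.79 and 1.49 FPKM in the sham mice. It was at 5.36, 1.36 and 4.61 FPKM in the MI mice, with a log2 fold change of 0.86 ± 0.33 (limma, adjusted p = 0.114). Top2a, the topoisomerase that untangles replicated chromosomes, was at 0.723, 0.906, 1.03 and 1.06 FPKM in the sham mice and at 3.88, 0.844 and 3.28 FPKM in the MI mice. For both genes MI replicate 2 lay within the sham range. The mean of Mki67 was 1.43 ± 0.282 FPKM (SD, n = 4) in the sham mice and 3.78 ± 2.13 FPKM (SD, n = 3) in the MI mice. Without MI replicate 2 the log2 fold changes were 1.30 ± 0.12 for Mki67 (limma, adjusted p = 8.85e-05) and 1.25 ± 0.10 for Top2a (limma, adjusted p = 5.26e-05).

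**Figure D3:**
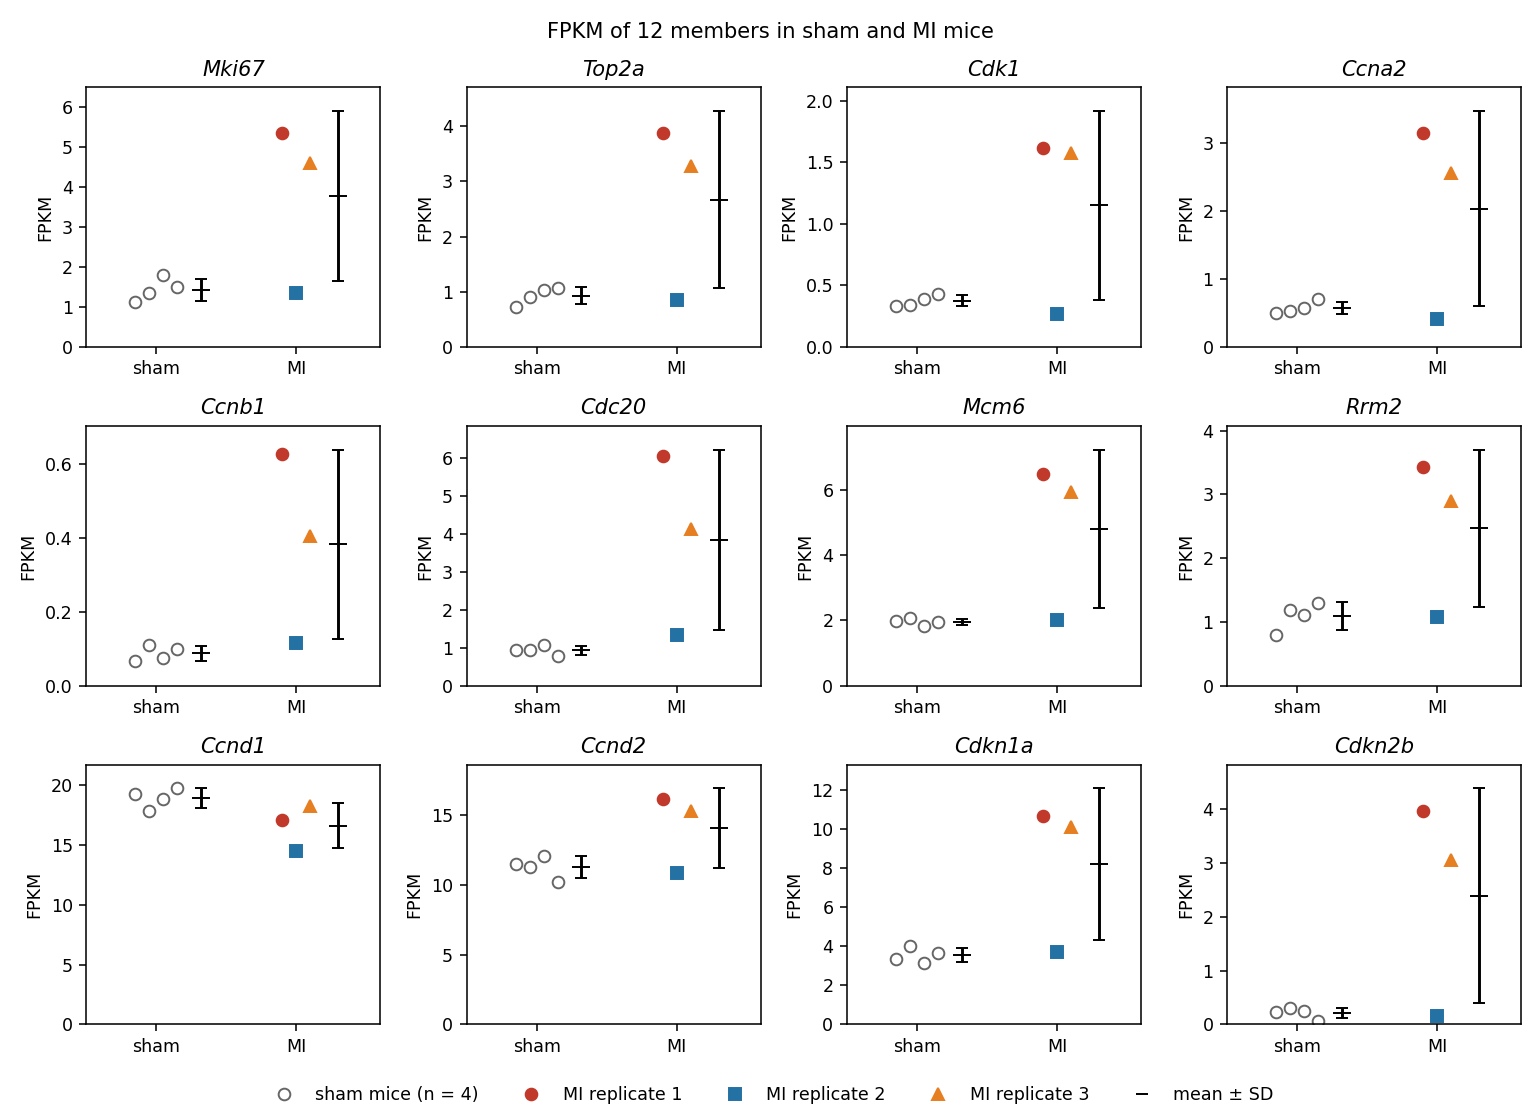
FPKM of 12 members in the 4 sham mice (open circles) and the 3 MI mice (red circle, replicate 1, blue square, replicate 2, orange triangle, replicate 3), with black bars for mean ± SD. The MI values lie apart, as for Mki67 at 5.36, 1.36 and 4.61 FPKM, and only Ccnd1 has no MI mouse above the highest sham mouse.

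Cdk1, the kinase of mitotic entry, was at 0.336, 0.34, 0.393 and 0.431 FPKM in the sham mice and at 1.62, 0.265 and 1.58 FPKM in the MI mice. Ccna2, cyclin A2, was at 0.497, 0.536, 0.57 and 0.702 FPKM in the sham mice and at 3.15, 0.408 and 2.57 FPKM in the MI mice. In both genes MI replicate 2 was below every sham mouse, while MI replicates 1 and 3 were at least 4.2 times the sham mean. Ccnb1, cyclin B1, was at 0.0665, 0.109, 0.0741 and 0.0995 FPKM in the sham mice and at 0.628, 0.115 and 0.405 FPKM in the MI mice. Its groups did not overlap, but MI replicate 2 rested on 21 fragments and the highest sham mouse on 19. The copy Ccnb1-ps, a pseudogene, was listed at 0.45, 0.215, 0.265 and 0.35 FPKM in the sham mice and at 2.5, 0.343 and 2.01 FPKM in the MI mice, above Ccnb1 itself in every mouse, so the division between the copies is uncertain. Ccnb2, cyclin B2, had a log2 fold change of 1.00 ± 0.39 (limma, adjusted p = 0.115) and was at 6.24, 1.04 and 4.15 FPKM in the MI mice from a sham mean of 1.13. MI replicate 2 lay within the sham range for this gene too.

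Cdc20, which activates the anaphase-promoting complex and so ends mitosis (ENSMUSG00000006398, chromosome 4, 118432901 to 118437352), differed most on the log2 scale among the G2/M genes and among all members tested. It was at 0.95, 0.943, 1.07 and 0.784 FPKM in the sham mice and at 6.07, 1.34 and 4.13 FPKM in the MI mice. All MI mice lay above all sham mice, with 70 fragments in MI replicate 2 against 36 to 58 in the sham mice. The log2 fold change was 1.18 ± 0.34 (limma, adjusted p = 0.108) with all mice and 1.64 ± 0.13 (limma, adjusted p = 5.59e-05) without MI replicate 2.

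The mitotic kinases were under the filter and were high in MI replicates 1 and 3. Plk1, a kinase of centrosome maturation and spindle assembly, was at 0.482, 0.256, 0.421 and 0.479 FPKM in the sham mice and at 2.39, 0.368 and 1.95 FPKM in the MI mice. Aurkb, the kinase of the chromosomal passenger complex, was at 0.299, 0.286, 0.301 and 0.276 FPKM in the sham mice and at 0.972, 0.243 and 0.991 FPKM in the MI mice. Aurka, the spindle pole kinase, was at 6.33 and 4.73 times its sham mean in MI replicates 1 and 3. In MI replicate 2, Plk1 and Aurka lay within the sham range and Aurkb below it. Of the 10 G2/M genes, 4 were tested (Mki67, Top2a, Ccnb2 and Cdc20), and all 4 were past the lines of an unadjusted p of 0.05 and a log2 fold change of 0.5, beside 17.8% of all genes tested. Top2a and Cdc20 passed the filter with the help of the MI mice, in which they were high, so this count of 4 is a description only.

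Genes of this kind share short promoter motifs. The cell cycle genes homology region (CHR) and CCAAT boxes are known from G2/M promoters, and E2F sites from S phase promoters. The 250 bases before the RefSeq transcription start (GRCm38.p6) were searched on both strands. The letters of the CHR were TTTGAA and also TTCGAA. Those of the box were CCAAT. Those of E2F sites were TTTCGCGC and also TTTGGCGC. A promoter sequence was matched for 40 members and for 27025 genes in all, and a gene with several starts counted once. CCAAT was found in 27 of the 40 members (67.5%), beside 37.5% of all genes and 40.2% of those past the filter. The CHR letters were in 12 (30%), beside 19.6% and 14%, and both together in 11 (27.5%), beside 7.93% and 6.49%. The E2F letters were in 3 members (7.5%), Mcm5, Mcm6 and Cdk1, beside 0.759% and 1.39%. By role, CCAAT was in 8 of 8 G2/M promoters, 8 of 11 S phase promoters, 8 of 11 spindle and cytokinesis promoters, 2 of 5 G1 promoters and 1 of 4 inhibitor promoters. E2F matches on both strands can overlap each other, and the CHR letters are short enough to occur often. A match is a description of letters, not evidence of binding, and no test was run on these shares.

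The last 100 bases before the RefSeq start are shown for 5 G2/M genes and the S phase gene Mcm6. They were chosen because they hold several of these letters and because Cdc20, Ccnb2 and Mcm6 had large differences. In GENCODE M21 the start lies further upstream for Ccnb1 (100786570), Cdc20 (118437352) and Cdk1 (69352938). By that annotation a part of each of these stretches, with some of the marked letters, lies inside the gene. The bases are written 5′ to 3′ on the strand of the gene, and capitals mark CCAAT, which reads ATTGG where it lies on the other strand, the CHR letters TTTGAA, which read TTCAAA where they lie on the other strand, and the E2F letters. All 6 genes lie on the minus strand.
Ccnb1, chr13:100786487-100786586: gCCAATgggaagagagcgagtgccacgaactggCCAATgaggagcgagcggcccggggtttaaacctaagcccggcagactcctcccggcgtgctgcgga
Ccnb2, chr9:70421555-70421654: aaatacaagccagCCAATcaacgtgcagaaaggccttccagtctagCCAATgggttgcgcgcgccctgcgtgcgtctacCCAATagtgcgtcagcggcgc
Cdc20, chr4:118437344-118437443: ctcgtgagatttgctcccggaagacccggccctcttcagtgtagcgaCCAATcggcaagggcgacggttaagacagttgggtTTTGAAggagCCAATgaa
Cdk1, chr10:69352913-69353012: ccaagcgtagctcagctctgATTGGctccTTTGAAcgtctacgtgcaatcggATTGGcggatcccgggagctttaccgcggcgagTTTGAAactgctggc
Top2a, chr11:99024190-99024289: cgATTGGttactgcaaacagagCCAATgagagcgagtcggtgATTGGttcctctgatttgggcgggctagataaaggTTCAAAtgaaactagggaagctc
Mcm6, chr1:128359706-128359805: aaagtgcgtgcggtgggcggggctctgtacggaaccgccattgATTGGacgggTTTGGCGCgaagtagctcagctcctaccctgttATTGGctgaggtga

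**Figure D4:**
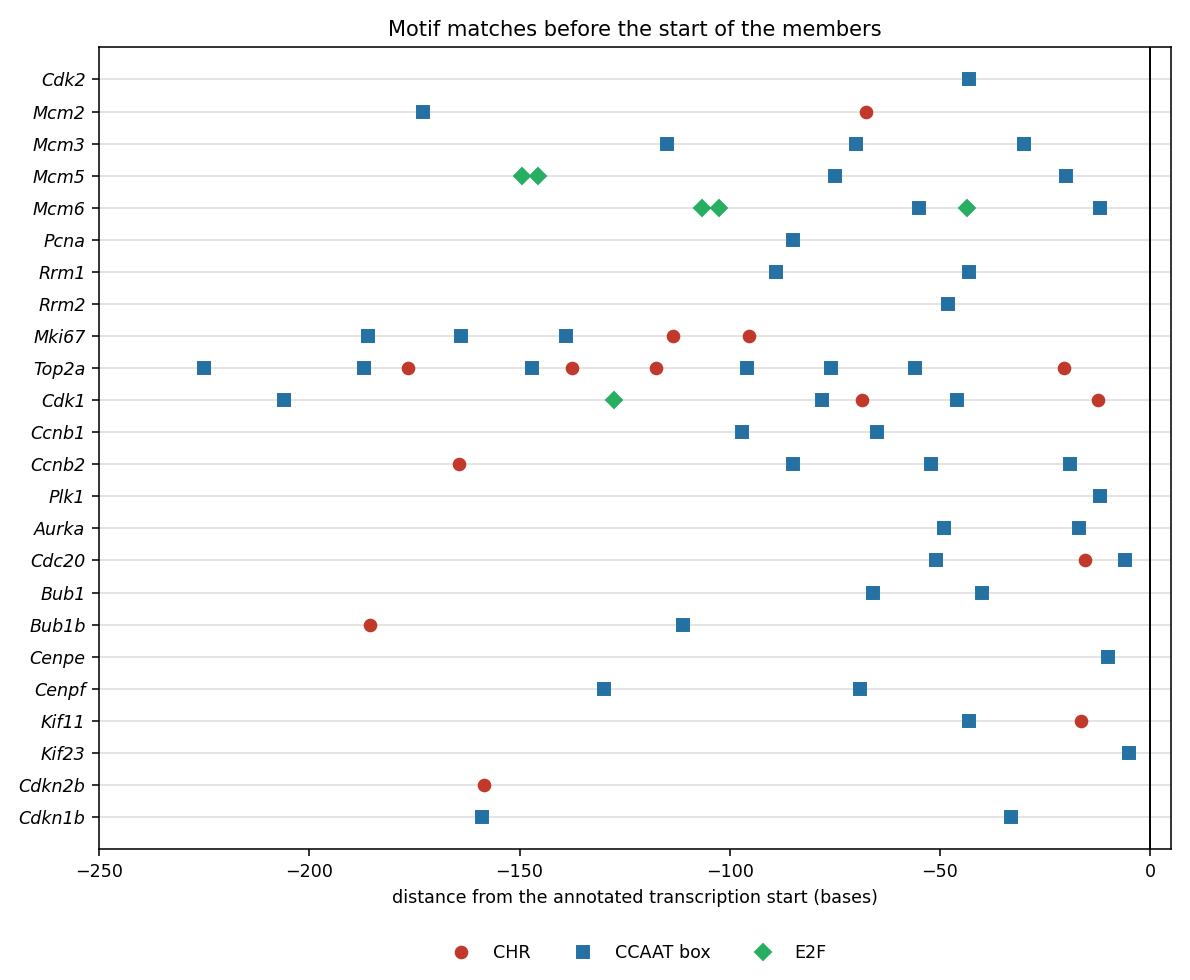
Positions of the CHR (red circles), CCAAT (blue squares) and E2F letters (green diamonds) in the 250 bases before the start, for the 24 members with 1 RefSeq promoter and at least 1 match. The x axis is the distance from the start in bases. Mcm5, Mcm6 and Cdk1 carry green marks, and every G2/M gene drawn carries a blue one.

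The spindle, kinetochore and cytokinesis genes were scarce, with 1 of 13 past the filter. In 12 of 13, MI replicates 1 and 3 were above every sham mouse, beside 44% of all genes with no filter, at a median of 4.06 and 3.52 times the sham mean over the 13, against 0.894 times in MI replicate 2. Birc5, survivin, a subunit of the chromosomal passenger complex, differed most of them on the log2 scale, by 0.71 ± 0.30 with no filter. It was at 0.321, 0.232, 0.49 and 0.48 FPKM in the sham mice and at 2.25, 0.307 and 1.71 FPKM in the MI mice. The checkpoint kinases Bub1 and Bub1b were at 5.17 and 3.81 times the sham mean in MI replicate 1 and at 3.65 and 3.14 times in MI replicate 3. For the mitotic kinesins Kif11, Kif20a and Kif23 the range was 2.3 (Kif23) to 5.18 (Kif20a) times in MI replicate 1 and 2.52 (Kif23) to 3.52 (Kif11) times in MI replicate 3. Cenpe, the kinesin of the kinetochore, was at 4.35 and 3.54 times.

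Among the other genes of this group, Prc1, which bundles the microtubules of the central spindle, had no overlap between the groups. It was at 0.166, 0.195, 0.225 and 0.219 FPKM in the sham mice and at 0.817, 0.23 and 0.811 FPKM in the MI mice. MI replicate 2 rested on 80 fragments and the highest sham mouse on 81, so the difference between these mice came from their depths. Anln and Ect2, which position and start the contractile ring, were at 4.62 and 3.64 times the sham mean in MI replicate 1. Tpx2 and Nusap1, which organise spindle microtubules, were at 4.39 and 3.94 times. In MI replicate 2 Nusap1 was at 0.513 times the sham mean, below all sham mice.

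Cenpf, a kinetochore protein, was the member of this group that stood apart. It was at 0.794, 1.19, 1.83 and 2.3 FPKM in the sham mice and at 0.853, 2.21 and 0.889 FPKM in the MI mice. MI replicates 1 and 3 lay near the lowest sham mouse and MI replicate 2 near the highest, the opposite of the order of the other 12. The sham mice differed among themselves by more than the groups did, and the log2 fold change of -0.14 ± 0.27 (limma, adjusted p = 0.702) was within its error. Its sign did not hold under the alternatives, being 0.01 without sham replicate 4 or with a block for replicate number.

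Both transcription factors were under the filter. E2f1, the activating E2F factor of the G1 to S transition, was at 0.418, 0.433, 0.491 and 0.513 FPKM in the sham mice and at 2.01, 0.518 and 2.01 FPKM in the MI mice. MI replicate 2 exceeded the highest sham mouse by 0.518 against 0.513 FPKM, so the absence of overlap rested on a small margin. Foxm1, the forkhead factor of G2/M genes, was at 0.161, 0.192, 0.308 and 0.148 FPKM in the sham mice and at 0.529, 0.136 and 0.646 FPKM in the MI mice. With no filter the log2 fold changes were 0.71 ± 0.25 for E2f1 and 0.24 ± 0.13 for Foxm1.

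The member that differed most of all 50 on the log2 scale was an inhibitor. Cdkn2b, p15Ink4b, which binds Cdk4 and Cdk6 (ENSMUSG00000073802, chromosome 4, 89306299 to 89311039), was at 0.225, 0.299, 0.245 and 0.072 FPKM in the sham mice, from 2 to 9 fragments. It was at 3.96, 0.159 and 3.05 FPKM in the MI mice, from 120, 5 and 100 fragments. MI replicates 1 and 3 were at 18.9 and 14.5 times the sham mean, the largest ratios of any member, while MI replicate 2 lay within the sham range. Its log2 fold change was 1.24 ± 0.48 with no filter (limma, adjusted p = 0.189) and 1.89 ± 0.12 without MI replicate 2 as well (limma, adjusted p = 0.00016). Cdkn2a, the neighbouring gene on chromosome 4 that encodes p16Ink4a and p19Arf, was at 0.127, 0.164, 0.242 and 0.356 FPKM in the sham mice and at 1.31, 0.0628 and 0.783 FPKM in the MI mice. It rested on few fragments, 2 in MI replicate 2 and 4 to 10 in the sham mice. A gene-level value does not part the transcripts of its proteins.

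Cdkn1a, p21Cip1, a target of p53, was at 3.35, 4.04, 3.17 and 3.68 FPKM in the sham mice and at 10.7, 3.71 and 10.1 FPKM in the MI mice. The log2 fold change was 0.90 ± 0.31 (limma, adjusted p = 0.108) with all mice and 1.33 ± 0.09 (limma, adjusted p = 2.37e-05) without MI replicate 2. Cdkn1b, p27Kip1, which is common in resting cells, was at 4.31, 4.85, 3.2 and 3.68 FPKM in the sham mice and at 6.07, 3.42 and 6.48 FPKM in the MI mice. Cdkn1c, p57Kip2, an imprinted inhibitor, was at 4.13, 2.83, 3.19 and 2.95 FPKM in the sham mice and at 2.38, 3.22 and 3.05 FPKM in the MI mice. The groups overlapped for Cdkn1c, and its log2 fold change was -0.13 ± 0.14 (limma, adjusted p = 0.452). It was -0.32 after scaling by the median log-ratio, -0.25 with mitochondrial genes left out and 0.02 after rescaling to TPM. Inhibitors and genes of replication and mitosis were thus high in the same MI mice, with Cdkn1c as the exception among the 5 inhibitors.

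Genes of the same pathways outside the 50 were read from 8 further lists, which held 153 genes in the table. Of these, 133 stood above every sham mouse in MI replicates 1 and 3, a pattern found in 44% of all genes with no filter, which is the background of the like counts for each list. Of the 78 tested with all mice, 14 were past the lines as higher, a share close to the 17.8% of all genes tested, and 1 as lower, with a median log2 fold change of 0.26. Without MI replicate 2, limma called 53 of 77 higher, beside 56.8% of all genes, and 5 lower, beside 14.9%. The mitotic kinesins and cytokinesis genes (15 of 15), the kinetochore and checkpoint genes (21 of 22) and the condensin and cohesin genes (15 of 16) stood above the sham mice in MI replicates 1 and 3 most completely. Their median ratios in MI replicate 1 were 3.87, 3.89 and 1.64. In the kinesin list 0 genes passed the filter, and Ckap2, a microtubule-associated protein, ran from 0.329 to 0.465 FPKM in the sham mice and was at 2.04, 0.456 and 1.45 FPKM in the MI mice. In the kinetochore list 0 of 5 genes tested were past the lines. Over the whole list, with genes under the filter, the log2 fold changes ran from 0.02 for Spc24 to 0.58 for Incenp, which was itself under the filter. In the condensin and cohesin list 2 of 11 were, and Smc4, a core subunit of condensin, had the largest log2 fold change, 0.97. Pttg1, securin, which restrains separase, was at 8.75 to 10.2 FPKM in the sham mice and at 6.84, 6.42 and 6.98 FPKM in the MI mice, so that all MI mice lay below all sham mice.

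The origin licensing and replication fork genes gave 3 of 20 tested as higher by the lines, not above the 17.8% of all genes, and 31 of 38 above the sham mice in MI replicates 1 and 3. Lig1, the DNA ligase of lagging strands, had a log2 fold change of 0.58. Gmnn, geminin, which blocks a new round of licensing, ran from 10.5 to 13.9 FPKM in the sham mice and was at 7.36, 9.97 and 8.66 FPKM in the MI mice, below all sham mice. In FPKM, geminin and securin stood on the other side from Cdc20, cyclin B1 and cyclin B2. For the CDK regulators and ubiquitin ligases, 1 of 4 tested was past the lines, 12 of 15 were above the sham mice in MI replicates 1 and 3, and over the whole list the kinase partner Cks2, under the filter, had the largest log2 fold change, 1.01, and Fzr1 the lowest, -0.03. For the E2F, pocket protein and MuvB genes the counts were 1 of 11 and 16 of 18, from -0.36 for E2f6, a repressor, to 0.57 for E2f2, an activator under the filter.

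The p53 list held 16 genes, of which 14 were tested, 4 were past the lines as higher, beside 17.8% of all genes tested, and 1 as lower, beside 4.8%, with a median log2 fold change of 0.49. In MI replicates 1 and 3, 13 of the 16 stood above all sham mice and 2 below them. Phlda3, a p53 target that restrains Akt, ran from 5.21 to 6.32 FPKM in the sham mice and was at 40.5, 5.16 and 33 FPKM in the MI mice. Ccng1, cyclin G1, also a p53 target, went the other way, at 211 to 243 FPKM in the sham mice and 140, 194 and 141 FPKM in the MI mice. The cyclins and kinases that act in transcription, listed for comparison, gave 3 of 13 past the lines as higher, a share near that of all genes, a median of 0.23 and a median ratio of 1.44 in MI replicate 1, with Ccnl2 at 0.68 and Ccnh at -0.26.

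Marker genes of cell types moved in the same mice. The markers were those of 9 cell types, and the summed levels are given in FPKM. The 8 fibroblast markers summed to 122 to 145 in the sham mice and to 2492, 232 and 1923 in the MI mice, and all 8 were past the lines as higher, beside 17.8% of all genes tested. The 10 macrophage and monocyte markers summed to 202 to 256 and to 1332, 244 and 1144, with 9 of 9 tested past the lines. The 5 neutrophil markers summed to 0.3 to 1.27 and to 13.6, 0.485 and 7.25, with Ly6g at 0 in all mice and Retnlg at 0 in all sham mice. The 8 lymphocyte markers summed to 0.847 to 1.02 and to 29.3, 1.09 and 6.15, so that MI replicate 1 was well above MI replicate 3. The 6 erythroid markers summed to 371 to 774 and to 2390, 591 and 1014. The 4 mesothelial markers summed to 3.29 to 7.76 and to 19.7, 15.7 and 30.6, where MI replicate 2 was high as well.

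The sums over markers of the vessel wall differed less. The 6 endothelial markers summed to 124 to 144 FPKM in the sham mice and to 151, 116 and 164 FPKM in the MI mice, with 0 of 6 past the lines, and the 5 smooth muscle and pericyte markers to 159 to 176 and to 176, 165 and 174, with 1 of 4 past the lines as higher. That sum was carried by Rgs5, a pericyte gene, at 131 to 146 FPKM over all mice. Cnn1, calponin of contractile smooth muscle, ran from 0.507 to 0.56 FPKM in the sham mice and was at 6.67, 0.685 and 5.25 FPKM in the MI mice. Pdgfrb, a receptor of mural cells and fibroblasts, ran from 10.6 to 12.6 FPKM and was at 24.2, 10.9 and 22.3 FPKM in the MI mice. Of the 10 cardiomyocyte markers, 5 were past the lines as lower, beside 4.8% of all genes tested, and 2 as higher, beside 17.8%. Their sum was 8510 to 8825 FPKM in the sham mice and 12321, 8466 and 13234 FPKM in the MI mice. Nppa, atrial natriuretic peptide, was at 69.7 to 185 FPKM in the sham mice and at 7940, 160 and 8125 FPKM in the MI mice, so that it held the largest part of the sum in MI replicates 1 and 3 alone. All 10 markers were above 0 in all mice, as the label of myocardial tissue requires. The part of these cell types in the values of the cell cycle genes was not tested.

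The counting of some members is uncertain. In GENCODE M21 the exons of Kif20a share 1271 bases with Cdc23, those of Ccnd1 share 1100 bases with LTO1, those of Prc1 share 911 bases with Rccd1, those of Cdk4 share 641 bases with Tspan31 and those of Ccna2 share 510 bases with Exosc9, each on the opposite strand. Whether the authors' counting used the strand is not given in the sources used here, so fragments of these pairs may be divided wrongly. Cdk4 was at 4.12 to 9.18 FPKM, and Tspan31 reached 22.3 FPKM. The lengths implied by the FPKM values were longer than the exon lengths of this annotation for 48 of the 50 members. The median ratio was 1.42, 20 members were over 1.5 times, and the highest was 2.54 times for Cdkn1c, with 5185 against 2039 bases. Levels of different genes are therefore compared only roughly.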

How the data were processed

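Total RNA of myocardial tissue was sequenced in 7 mice, and groups were taken from the labels. The authors deposited FPKM values for 56980 Ensembl genes, and 0 columns were left unused. The submitters' processing notes name CASAVA 1.8, HISAT2, SAMtools 1.3.1, edgeR and the build mm10. The annotation, the counting program and its strand setting are not given in the sources used here. Symbols and positions came from GENCODE M21 on GRCm38, which held 52073 identifiers (91.4%). Since FPKM steps correspond to single fragments, integer fragment numbers and depths could be worked out (30503 of 30504 genes above 0, tolerance 0.03 fragments). The time after surgery came from the study's methods.

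Genes reaching 1 FPKM in 3 or more mice were tested on log2(FPKM + 1) with limma 3.58.1 (lmFit, eBayes with trend) in R 4.3.3, without covariates, and adjusted by the Benjamini-Hochberg method at 0.05. FPKM is not a count, so no count test was the main one. The study's methods name no test for the sequencing, and the lines of its volcano plot, an unadjusted p of 0.05 and a log2 fold change of 0.5, were the second criterion. Single members were also tested with an exact two-sided permutation test over the 35 splits. Python 3.11.15 ran the rest, with SciPy 1.17.1, NumPy 2.4.6, matplotlib 3.10.9 and pandas 2.3.3. The fragment recovery and limma steps were tested on simulated data.

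The members and lists were chosen with earlier results of these data known. All members are named by symbol. By rule, values in every mouse are given for 29 members of known role and for the members with the highest and lowest log2 fold change of each role group, and the genes with the highest and lowest log2 fold change are named for the other lists. The values of Mcm7, Prc1 and Ccnb2, the markers Ly6g, Retnlg, Rgs5 and Pdgfrb and the overlapping genes were chosen after they were seen. Alternatives tried were TPM, scaling by the median log-ratio, mitochondrial genes left out, a pseudocount of 0.1, a filter on the mean or none, no trend, sample weights, voom on recovered fragments, a block for replicate number and each of the 7 mice left out. Leaving out the filter together with 1 MI mouse was added after seeing the data.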

Additional observations from a re-analysis of the deposited data

Results flagged for a closer look

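In the sham group, 3 of 56 sets of values (the 50 members and the 6 role groups) had 1 mouse far from the other 3 by Dixon's ratio, the gap to the nearest mouse divided by the range. Chance flags about 1 in 20 such sets, or 2.8 of 56. For Cdk4, sham replicate 1 was low, at 4.18 FPKM against 4.79 to 4.89, with a ratio of 0.865. For Aurka, sham replicate 4 was high, at 0.284 FPKM against 0.187 to 0.202, with a ratio of 0.842. For Bub1b, sham replicate 2 was low, at 0.582 FPKM against 0.644 to 0.655, with a ratio of 0.843. MI replicates 1 and 3 were outside the sham range in all 3 genes. The MI group of 3 mice is too small for this measure.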

How the results depend on the processing

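The number of members past the lines as higher in the MI mice, 11 with all mice, was 6 after scaling by the median log-ratio, 18 of 50 with no filter, and 1 to 17 when each of the 7 mice was left out in turn. It was 1 without MI replicate 1, 17 without MI replicate 2, 1 without MI replicate 3, and 4, 5, 6 and 8 without sham replicates 1 to 4. With no filter it was 1, 38 and 1 of 50 without MI replicates 1, 2 and 3, alternatives chosen after seeing the data. Members at an adjusted p under 0.05 as higher were 0 with all mice, 19 with sample weights (with 1 lower), 0 to 19 with a mouse left out, and 46 of 50 with no filter and without MI replicate 2. The sample weights did not converge and put 437 on MI replicate 3 against 0.0906 and 0.0217 on MI replicates 1 and 2, so that fit rests on 1 mouse. Members with all MI mice above all sham mice were 2, or 5 with no filter, 2 to 19 with a mouse left out (19 without MI replicate 2, 5 without sham replicate 2), and 5, 46 and 5 of 50 with no filter and without MI replicates 1, 2 and 3. Members with all MI mice below were 0, or 1 after scaling by the median log-ratio or without mitochondrial genes, 0 to 1 with a mouse left out, and 1 with no filter and without MI replicate 3. The median log2 fold change of the members tested, 0.53, stayed between 0.31 and 0.82 under all alternatives.

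Of the 50 members, 47 kept the sign of their log2 fold change under all alternatives that included them. The 27 members under the filter entered only the fits with no filter and, for some, the filter on the mean. They were not tried under TPM or the other scalings, so the count says less about them. The exceptions were Ccnd1 (0.01) and Cdkn1c (0.02) as TPM, and Cenpf, at 0.01 with the replicate block and without sham replicate 4, and at 0.00 without MI replicate 1, with or without the filter (from -0.40 to 0.01 with a mouse left out). TPM was the scaling that moved the median of all genes most, to 0.42 from 0.21, with 92.7% of the calls higher. The causes were not tested. Deviations of same-numbered mice from their group means correlated at 0.07, -0.02 and -0.08 across genes. The MI deviations depend largely on MI replicate 2, so these values cannot decide whether the replicate numbers pair the mice. A fit with the replicate block gave 8 members past the lines, 0 at an adjusted p under 0.05 and 2 without overlap. Depth limits Cdkn2a, Cdkn2b, Cdc6 and Ccnb1 most, whose sham values rest on 2 to 20 fragments.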
